A study of Mus musculus with 15 samples.

Results

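Left ventricular heart muscle cells isolated 7 days after whole-body iron ion exposure were set against the same kind of cells isolated 3 days after it. The arrays were chosen by their titles, 2 arrays of iron day 7 and 3 arrays of iron day 3, which are 5 of the 15 arrays of the series. No sham array entered the difference, although all 15 arrays shared the estimate of spread. Mice of both days were male C57Bl/6NT animals, 8 to 9 months old, and both groups had received 0.15 Gy of 1 GeV per nucleon iron ions (56Fe), whose linear energy transfer was about 151 keV/µm. The other arrays were of iron day 1 (3), iron day 14 (2), iron day 28 (2) and sham exposure (3, collected on days 1 and 3). Iron ions are densely ionizing particles that form part of galactic cosmic radiation, and the question of the comparison is how transcript levels in these cells differed between the first days and 1 week after exposure.

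Cells were released from the heart with collagenase and selected through a calcium gradient, and per the labels over 90% were calcium-tolerant cardiomyocytes, with room for a few inflammatory or endothelial cells. Biotin-labelled cRNA was hybridised to Affymetrix arrays with 34760 probe sets. All values are the deposited log2 signals, and differences are iron day 7 minus iron day 3 on the log2 scale, each with its standard error (SE) in limma. Of 19937 genes, the 9969 with the highest mean signal were tested with limma, and a gene passed at an adjusted p (Benjamini-Hochberg over those genes) under 0.05. Whether each array is of its own mouse is not in the labels, so a p-value covers only array-to-array spread, part or all of which may be technical. The arrays give no read depth, and their number limits the precision.

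Some background helps with the genes named here. The circadian clock is a loop in which Arntl (Bmal1) and Clock switch on the genes for their own repressors, the period and cryptochrome proteins, while the receptors Nr1d1 and Nr1d2 repress Arntl, and output factors such as Dbp and Tef pass the rhythm on to other genes, ion channels of the heart among them. The adult heart also holds resident macrophages, which carry complement and class II antigen-presenting genes, fibroblasts, endothelium and an outer epicardial layer. Cells of these other types can accompany isolated myocytes.

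The 2 days differed in many genes. On day 7, 673 genes were higher and 804 were lower than on day 3 (limma, adjusted p under 0.05), so 1477 genes or 14.8% of those tested passed, 6.75% upward and 8.07% downward, and 3037 had an unadjusted p under 0.05. The genes that rose moved further, by a median of 0.95, against a median of -0.47 among those that fell. A change of over 2-fold was seen in 313 genes that rose and in 21 that fell. The median difference over all genes tested was -0.06. Among all genes tested, both day 7 arrays lay above all 3 day 3 arrays in 18% and below them in 29.4%.

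The 2 day 7 arrays were less alike than the 3 day 3 arrays. Over the genes tested, their values correlated at r = 0.970, against 0.986 to 0.989 between day 3 arrays and 0.913 to 0.970 between the days, and array medians over all 15 arrays ran from 4.96 to 5.13. On the first principal component, which took 42.2% of the variance, day 7 replicate 1 lay at -30.3 and replicate 2 at -5.97, against 14.7 to 20.8 for the day 3 arrays. The count of genes that passed rested on single arrays. It was 143 (81 higher and 62 lower) without day 7 replicate 1, 720 (411 and 309) without day 3 replicate 2, and 1009 (490 and 519) without day 3 replicate 1. Without day 7 replicate 2 it was 1723, and 1184 of these were among the 1477, in the same direction. Across the fit of all arrays and the 5 fits that left out 1 array each, 120 genes passed every time, 81 higher and 39 lower.

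**Figure D1:**
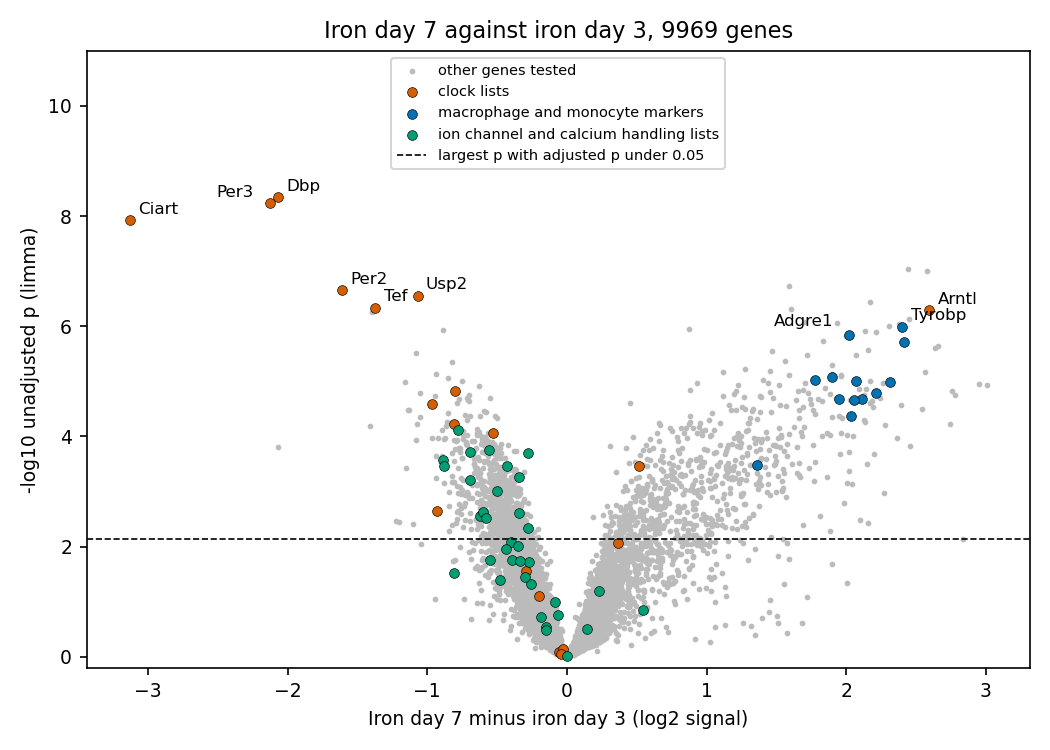
Each point is 1 of the 9969 genes tested, with the difference of iron day 7 minus iron day 3 (log2 signal) on the horizontal axis and -log10 of the unadjusted limma p on the vertical axis, and the dashed line marks the largest p that passed. The clock genes (orange) that moved furthest lie at the outer edges, with others near 0, macrophage and monocyte markers (blue) lie between 1.36 and 2.41 on the right, and genes for ion channels and calcium handling (green) lie mostly left of 0.

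The clock genes held the smallest p-values among the genes that fell. Of 9 tested clock repressors, 7 were lower on day 7 and 2 did not pass, with a median difference of -0.81, against -0.06 over all genes tested. Among all genes tested, 8.07% were lower. Of 10 tested activators and output factors, 2 were higher (Arntl and Nfil3) and 4 were lower (Dbp, Tef, Usp2 and Hlf). The clock proteins act through short DNA motifs. Promoter windows are shown for Ciart and Per3, which fell furthest, and for Arntl and Nfil3, which rose. They are RefSeq windows of GRCm38.p6 from 250 bases before to 50 bases after a gene's start, 5′ to 3′ on the gene's strand, with motif letters in capitals.
Ciart, chr3:95882179-95882478, minus strand, E-boxes in capitals: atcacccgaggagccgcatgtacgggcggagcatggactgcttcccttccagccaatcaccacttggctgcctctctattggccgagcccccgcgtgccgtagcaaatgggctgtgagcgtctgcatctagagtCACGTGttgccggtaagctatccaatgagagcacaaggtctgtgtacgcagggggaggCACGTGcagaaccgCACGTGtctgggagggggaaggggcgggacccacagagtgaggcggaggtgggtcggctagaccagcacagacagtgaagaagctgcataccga
Per3, chr4:151044616-151044915, minus strand, D-boxes in capitals: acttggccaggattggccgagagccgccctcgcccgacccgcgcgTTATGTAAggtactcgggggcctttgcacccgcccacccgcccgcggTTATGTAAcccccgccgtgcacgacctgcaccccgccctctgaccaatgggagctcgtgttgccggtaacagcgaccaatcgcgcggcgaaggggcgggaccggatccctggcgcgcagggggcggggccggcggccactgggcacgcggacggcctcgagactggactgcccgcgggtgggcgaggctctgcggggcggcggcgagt
Arntl, chr7:113207261-113207560, plus strand, ROR element core in capitals: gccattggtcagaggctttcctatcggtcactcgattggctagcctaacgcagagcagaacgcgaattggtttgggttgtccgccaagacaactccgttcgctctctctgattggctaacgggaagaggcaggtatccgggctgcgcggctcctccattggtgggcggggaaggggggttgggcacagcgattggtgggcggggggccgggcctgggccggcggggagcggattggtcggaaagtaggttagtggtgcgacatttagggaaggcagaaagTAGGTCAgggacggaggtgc
Nfil3, chr13:52980990-52981289, minus strand, ROR element core on the opposite strand in capitals: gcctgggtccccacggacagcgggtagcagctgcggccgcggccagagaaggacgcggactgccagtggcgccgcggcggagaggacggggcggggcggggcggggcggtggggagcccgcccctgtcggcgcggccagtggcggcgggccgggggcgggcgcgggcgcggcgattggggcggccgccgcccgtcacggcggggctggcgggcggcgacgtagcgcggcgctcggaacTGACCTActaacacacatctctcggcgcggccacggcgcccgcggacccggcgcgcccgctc
The motifs searched, on both strands, were the E-box CACGTG, which Arntl and Clock bind, the D-box (TTATGTAA or TTACGTAA), which Dbp, Tef, Hlf and Nfil3 bind, the core TAGGTCA of the ROR element, which Nr1d1, Nr1d2 and the ROR receptors bind, and the cAMP response element TGACGTCA. The letters of these motifs do not overlap one another in the windows shown.

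The Ciart window held 3 E-boxes, which began 116, 58 and 44 bases before the start, and the Per3 window held 2 D-boxes, 205 and 158 bases before it. The Arntl window shown held 1 ROR element core 31 bases into the transcript, and the Nfil3 window held 1 that began 12 bases before the start. Another Arntl window, chr7:113207215-113207514, which overlaps the one shown, held none of the motifs searched. The windows of Dbp, Cry2, Nr1d2 and Usp2 held none either. Among 32851 RefSeq windows of the same length, 7.15% held an E-box, 1.06% a D-box, 2.61% the ROR element core and 1.79% the cAMP response element. Of the 13 clock genes that passed, 12 had a window here. An E-box stood in 4 of the 12 (Ciart, Per1, Bhlhe41 and Tef), a D-box in 1 (Per3), the ROR element core in 2 (Arntl and Nfil3) and the cAMP response element in 1 (Hlf). A gene counted if any of its windows held the motif, and Per1, Arntl and Tef had more than 1 window. The percentages are of single windows, so the 2 measures differ in unit. A match describes the letters in these windows and is no measurement of binding.

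Among the repressors, Ciart, which encodes a repressor of Clock and Arntl, had log2 signals of 5.12 and 5.89 on day 7, against 8.51, 8.63 and 8.78 on day 3. The days were far apart and the difference of -3.13 (SE 0.255, limma adjusted p = 3.9e-05), or 8.76-fold lower, was the largest fall among passing genes with no overlap between the days. A second probe set for Ciart gave -2.94. Per3, a period gene, had 4.93 and 5.35 on day 7 and 7.01, 7.45 and 7.34 on day 3, a difference of -2.12 (SE 0.163, limma adjusted p = 2.89e-05). Per2, a core repressor of the loop, had 5.27 and 5.58 on day 7 and 6.79, 7.08 and 7.23 on day 3, a difference of -1.61 (SE 0.167, limma adjusted p = 0.00031). In these 3 genes the highest day 7 array lay more than 1 log2 unit below the lowest day 3 array. Cry2, a cryptochrome, fell by 0.80, Bhlhe41, a transcriptional repressor of the loop, by 0.97, Per1 by 0.81 and the nuclear receptor Nr1d2 by 0.53 (limma adjusted p from 0.00203 to 0.00434), and the arrays of the days did not overlap in any of the 4. Nr1d1, the partner of Nr1d2, had 8.41 and 8.65 on day 7 and 8.92, 8.31 and 8.51 on day 3 (difference -0.04, SE 0.301, limma adjusted p = 0.934). Bhlhe40 had 8.29 and 7.80 on day 7 and 8.40, 8.09 and 7.80 on day 3 (difference -0.05, SE 0.211, limma adjusted p = 0.891). In both genes the days overlapped. Cry1 was below the signal minimum and was not tested.

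Among the activators, Arntl stood opposite to the repressors. Its log2 signals were 7.26 and 6.77 on day 7, against 4.75, 4.14 and 4.38 on day 3, so it was 6.04-fold higher on day 7 (difference 2.60, SE 0.29, limma adjusted p = 0.000416). All 3 day 3 signals lay below the minimum of 5.51 that was set for a gene's mean. Clock, its partner, had 8.42 and 8.22 on day 7 and 8.09, 7.95 and 7.82 on day 3, and the difference of 0.37 (SE 0.119, limma adjusted p = 0.0548) did not pass. Nfil3, a repressor that competes with Dbp for the D-box, had 6.74 and 6.70 on day 7 and 6.28, 6.20 and 6.13 on day 3, a difference of 0.51 (SE 0.108, limma adjusted p = 0.0083). Other genes of this group fell. Dbp, an activator at D-boxes, had 7.58 and 8.16 on day 7 and 9.79, 9.98 and 10.03 on day 3, which is 4.19-fold lower on day 7 (difference -2.07, SE 0.156, limma adjusted p = 2.89e-05). Its relative Tef had 7.51 and 7.73 on day 7 and 8.82, 9.14 and 9.02 on day 3 (difference -1.37, SE 0.152, limma adjusted p = 0.000416). Usp2, a clock-controlled deubiquitinase, had 8.74 and 9.20 on day 7 and 10.05, 10.11 and 9.96 on day 3 (difference -1.07, SE 0.113, limma adjusted p = 0.000348). In all 3 the days lay apart. Hlf, the last of this family, fell by 0.93 (SE 0.248, limma adjusted p = 0.0244). The receptor Rora (-0.29) and the casein kinases Csnk1e (-0.20) and Csnk1d (-0.03) did not pass. In each, both day 7 arrays lay below all 3 day 3 arrays, as they did in 29.4% of all genes tested.

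Leaving out any 1 of the 5 arrays kept Ciart, Per3, Per2, Cry2, Arntl, Dbp, Tef and Usp2 past the threshold. Without day 7 replicate 1, differences of -0.86 for Bhlhe41, -0.74 for Per1, -0.42 for Nr1d2, 0.49 for Nfil3 and -0.81 for Hlf had limma adjusted p-values of 0.0527, 0.0641, 0.0861, 0.0986 and 0.216. Hlf was also lost without day 3 replicate 2 (limma adjusted p = 0.0937) or replicate 3 (0.0704). Beside the sham arrays of days 1 and 3, Ciart differed by -2.67 on iron day 7 and by 0.46 on iron day 3, Per3 by -1.93 and 0.19, Dbp by -1.88 and 0.18, and Arntl by 1.85 and -0.75, and those differences share the arrays compared here. Of the 9 clock repressors, 7 were lower than sham on day 7 (limma, adjusted p under 0.05, against 2.67% of all genes tested), and the list's median difference from sham was -0.63 on day 7 and 0.17 on day 3. The labels used here give the day of collection and not the hour.

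**Figure D2:**
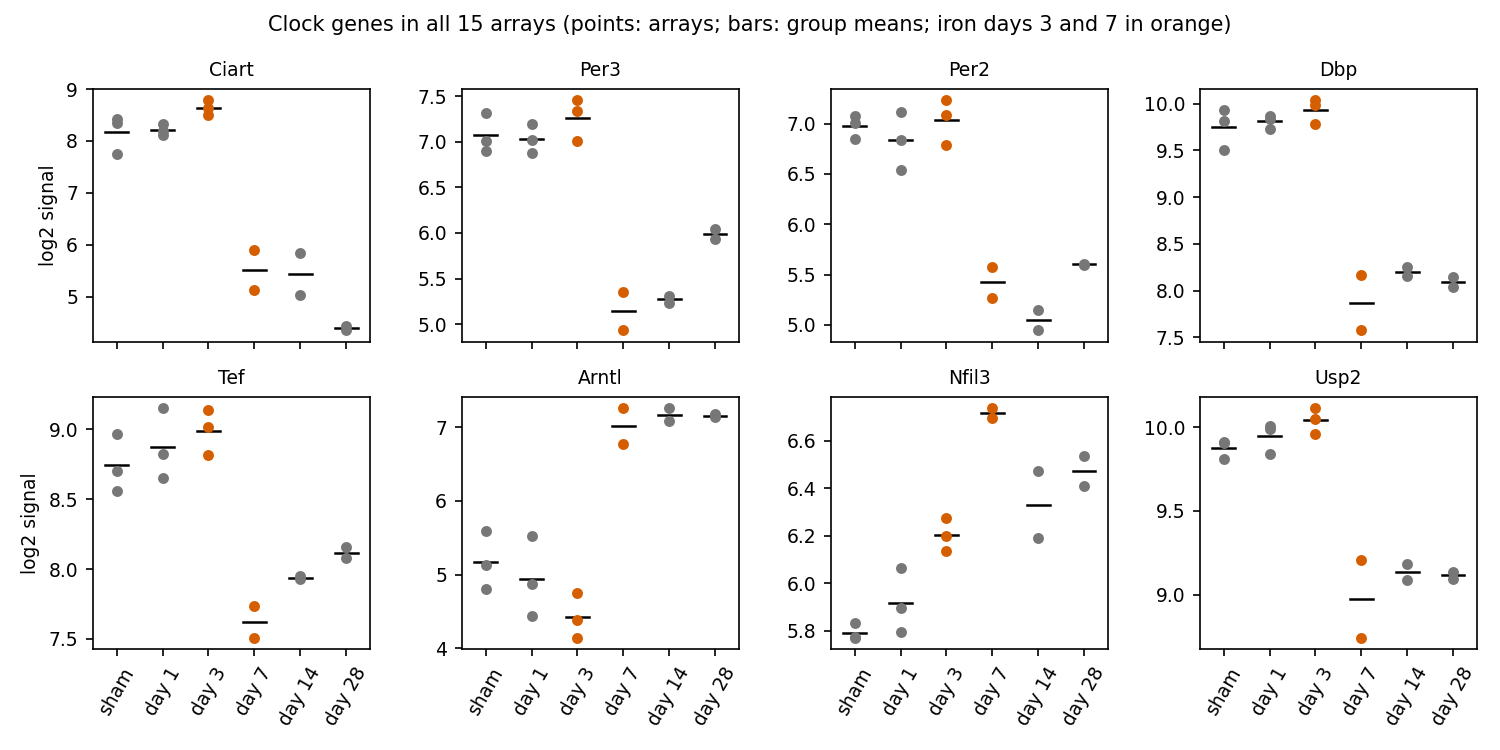
Log2 signal of 8 clock genes in all 15 arrays, with sham at the left and iron days 1 to 28 in time order; points are arrays, bars are group means, and iron days 3 and 7 are orange. Sham, day 1 and day 3 arrays lie on one side and day 7, 14 and 28 arrays on the other for Ciart, Per3, Per2, Dbp, Tef and Arntl; for Arntl the later days are the higher ones, with day 7 at 7.26 and 6.77 and day 3 at 4.75, 4.14 and 4.38.

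All 13 tested macrophage and monocyte markers were higher on day 7 (limma, adjusted p under 0.05), with differences from 1.36 to 2.41 and a median of 2.06, against 6.75% of all genes that were higher and a median of -0.06 over all genes. Adgre1, which encodes an adhesion receptor of the macrophage surface, had 7.61 and 6.96 on day 7, against 5.18, 5.20 and 5.40 on day 3 (difference 2.02, SE 0.246, limma adjusted p = 0.000589). Tyrobp, a signalling adaptor of myeloid cells, had 8.70 and 7.96 on day 7 and 5.82, 5.85 and 6.12 on day 3 (difference 2.40, SE 0.284, limma adjusted p = 0.000536). Csf1r, the receptor for macrophage colony-stimulating factor, had 8.27 and 7.57 on day 7 and 6.09, 6.06 and 6.27 on day 3 (difference 1.78, SE 0.257, limma adjusted p = 0.00177). The groups were apart in each, and replicate 1 was the higher day 7 array. Lyve1 and Mrc1, which resident cardiac macrophages carry, rose by 1.95 (SE 0.305) and 2.06 (SE 0.324), both at a limma adjusted p of 0.00215. The markers Cd163, Fcgr1, Itgam, Cd14 and Ccr2 were below the signal minimum. In bulk cells, more cells of a type and more RNA per cell cannot be told apart.

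The mean centred signal of the 13 markers was 1.46 and 0.90 in the day 7 arrays and -0.89, -1.04 and -0.67 in the day 3 arrays. The sham arrays lay between them, at 0.59, 0.25 and 0.58. Against sham, 1 of the 13 was higher on day 7 (1.94% of all genes were), and 11 were lower on day 3 (5.25% of all genes were); those comparisons share the day 7 and day 3 arrays with the difference given above. Of the 13, 10 still passed without day 7 replicate 1, with a median of 1.80.

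Class II antigen presentation genes, which load and display peptides to helper T cells, rose with them. Of 7 tested, 6 were higher on day 7, against 6.75% of all genes tested, with a median of 2.31 over the 7. All 6 passed without any 1 of the day 3 arrays. H2-Aa, a class II chain, had 9.77 and 8.83 on day 7, against 6.62, 6.68 and 6.88 on day 3 (difference 2.58, SE 0.25, limma adjusted p = 0.0002). H2-Eb1 had 9.54 and 8.68 on day 7 and 6.69, 6.66 and 6.67 on day 3 (difference 2.44, SE 0.235, limma adjusted p = 0.0002). Cd74, the invariant chain that guides these proteins, had 10.19 and 9.18 on day 7 and 7.43, 7.32 and 7.38 on day 3 (difference 2.31, SE 0.273, limma adjusted p = 0.000536). The lowest day 7 array stood well over the highest day 3 array in each. The protease Ctss rose by 2.45, H2-Ab1 by 2.13 and the peptide exchange factor H2-DMa by 1.21. Ciita, the activator of class II genes, had 6.05 and 6.05 on day 7 and 6.16, 6.13 and 5.62 on day 3, and did not pass (difference 0.08, limma adjusted p = 0.803). Against sham, H2-Aa differed by 1.12 on day 7 and by -1.46 on day 3.

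All 10 tested complement genes were higher on day 7, against 6.75% of all genes tested, with a median of 1.88. Of the 10, 3 (C1qa, C1qb and C1qc) are also in the macrophage list. C1qc, a subunit of the first complement component, had 9.43 and 8.90 on day 7 and 6.47, 6.84 and 6.95 on day 3 (difference 2.41, SE 0.303, limma adjusted p = 0.000725). The other 7 were C2 (1.39), C3ar1 (1.90), C5ar1 (2.12), C4b (1.09), Serping1, Cd55 (1.86) and C1s1 (1.33), which code for components, receptors and inhibitors of the cascade. Only the 3 C1q genes passed without day 7 replicate 1, where the median was 1.40.

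Of 15 tested cytokines, chemokines and their responders, 10 were higher, against 6.75% of all genes tested, and 0 lower, with a median of 1.04. Ccl9, a chemokine of myeloid cells, had 9.29 and 9.22 on day 7, against 6.89, 5.70 and 6.16 on day 3, and was 8.04-fold higher (difference 3.01, SE 0.445, limma adjusted p = 0.00185), the largest rise among such genes in that direction. Its neighbour in function, Ccl6, had 9.51 and 9.27 on day 7 and 6.79, 6.38 and 6.67 on day 3 (difference 2.78, SE 0.427, limma adjusted p = 0.00214). In both the day 7 arrays were close to each other. Cxcl16, a chemokine and scavenger receptor, rose by 1.69 (SE 0.255, limma adjusted p = 0.00203). The adhesion molecule Icam1 (1.04), the NF-kB inhibitor Nfkbia (0.88), its relative Nfkbiz (1.18) and the monocyte chemokines Ccl7 (1.38), Ccl3 (2.10) and Ccl2 (1.22) passed as well. Without day 7 replicate 1, 3 of the 15 passed (Ccl6, Ccl9 and Cxcl16), and 6 passed without day 3 replicate 1 or without day 3 replicate 2.

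Of 7 tested genes of the Toll-like receptor list, 4 were higher, against 6.75% of all genes tested. Myd88, the adaptor of most Toll-like receptors, had 7.35 and 7.06 on day 7 and 6.44, 6.30 and 6.26 on day 3 (difference 0.87, SE 0.104, limma adjusted p = 0.00055), and Unc93b1, which carries the nucleic acid receptors to endosomes, rose by 1.90 (SE 0.26, limma adjusted p = 0.00137). Tlr7, a receptor for single-stranded RNA, rose by 2.19 and Tlr2 by 0.43, and both were lost without day 7 replicate 1 (limma adjusted p = 0.0573 and 0.263). Tlr4 (0.57), Ly96 (0.29) and Tlr3 (-0.20) did not pass. Of 15 tested interferon response genes, 8 were higher, with a median of 0.64, and 1 was left without day 7 replicate 1. That gene was the transcription factor Irf1, which had 7.12 and 6.76 on day 7 and 5.45, 5.57 and 5.98 on day 3 (difference 1.28, SE 0.177, limma adjusted p = 0.00156). The 13 macrophage markers moved with all these lists, and their part in the results was not tested.

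**Figure D3:**
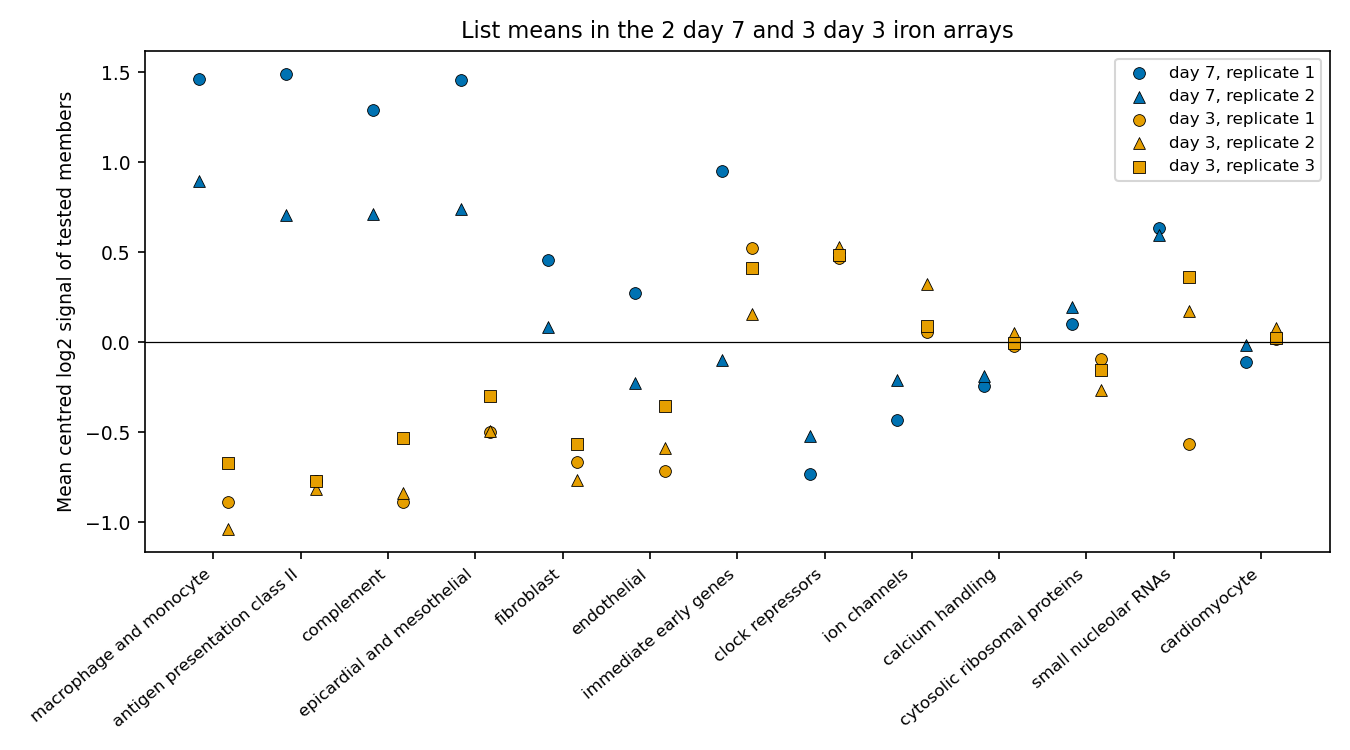
Mean centred log2 signal of the tested members of 13 lists, with the 2 day 7 arrays (blue) left of the 3 day 3 arrays (orange) in each column. For macrophage and monocyte markers, the day 7 arrays lie at 1.46 and 0.90 and the day 3 arrays at -0.89, -1.04 and -0.67; for immediate early genes, the day 7 arrays lie on both sides of the day 3 arrays.

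Markers of the epicardium and of mesothelium rose too, and the tissue they came from was not tested. Of 7 tested epicardial and mesothelial markers, 6 were higher on day 7, against 6.75% of all genes tested, with a median of 1.66 over the 7. Upk3b, a mesothelial uroplakin, had 10.05 and 9.37 on day 7, against 7.86, 8.10 and 8.19 on day 3 (difference 1.66, SE 0.251, limma adjusted p = 0.00203). Msln, or mesothelin, had 8.76 and 8.12 on day 7 and 6.88, 6.61 and 7.10 on day 3 (difference 1.57, SE 0.298, limma adjusted p = 0.00527). Wt1, a transcription factor of the epicardium, rose by 0.95, and Lrrn4, Upk1b and Krt19 by 1.77, 1.76 and 1.69. Without day 7 replicate 1, Upk3b passed (limma adjusted p = 0.046) and the other 5 did not, and the median was 1.25. The mean centred signal of the list was 1.46 and 0.74 on day 7, against -0.50, -0.50 and -0.30 on day 3. In the sham arrays it was 0.03 and -0.58 (day 1) and 0.80 (day 3).

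Of 15 tested fibroblast markers, 11 were higher on day 7, against 6.75% of all genes tested, with a median of 0.94. Of 27 extracellular matrix genes, 13 were higher (median 0.89), and of 8 small leucine-rich proteoglycans, which sit on collagen fibres, 5 were higher (median 0.99). The lists share genes, 5 between fibroblast and matrix and 3 between fibroblast and proteoglycan. Col3a1, a fibrillar collagen, had 7.96 and 7.24 on day 7 and 6.12, 5.95 and 5.89 on day 3 (difference 1.61, SE 0.335, limma adjusted p = 0.00803). Dcn, or decorin, had 11.37 and 11.02 on day 7 and 10.03, 10.32 and 10.37 on day 3 (difference 0.96, SE 0.197, limma adjusted p = 0.00759). Fmod, or fibromodulin, had 7.86 and 7.08 on day 7 and 5.89, 6.00 and 6.52 on day 3 (difference 1.33, SE 0.217, limma adjusted p = 0.00258). The days did not overlap in these 3. None of the members of the 3 lists passed without day 7 replicate 1, where the medians were 0.78 for fibroblast markers, 0.68 for matrix genes and 0.78 for proteoglycans. The fibroblast count was 5 without day 3 replicate 1 or without replicate 2, and the matrix count was 8 without day 3 replicate 2. Against sham, 0 of the 15 fibroblast markers passed in either direction on day 7, and 12 were lower on day 3, with medians of -0.25 and -1.45.

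Of 17 tested endothelial markers, 4 were higher (Vwf, Aqp1, Pecam1 and Tek), against 6.75% of all genes tested. Their list had a median of 0.57 and differences from -0.06 to 1.18. Vwf, or von Willebrand factor, had 8.14 and 7.49 on day 7 and 6.72, 6.56 and 7.08 on day 3 (difference 1.03, SE 0.224, limma adjusted p = 0.00982). The count was 0 without day 7 replicate 1 and 2 without any 1 of the day 3 arrays. Of 4 tested lymphocyte markers, Ptprc, a pan-leukocyte phosphatase, and Cd79b, part of the B cell receptor, were higher, by 2.20 and 2.27. Cd79b had 8.97 and 6.98 on day 7 and 5.47, 5.96 and 5.70 on day 3, and neither gene passed without day 7 replicate 1. The T cell genes Cd3e (0.32) and Cd4 (0.35) did not pass. None of 8 smooth muscle and pericyte, 4 erythroid, 5 atrial, 3 airway epithelium, 2 neural and Schwann or 1 adipocyte marker passed, with medians of 0.30, 0.97, 0.19, 1.03, 0.41 and 0.22, and the 8 neutrophil markers were all below the signal minimum. All 6 medians were lower without day 7 replicate 1, at 0.04, 0.06, 0.11, 0.25, 0.26 and 0.09 in the same order.

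**Figure D4:**
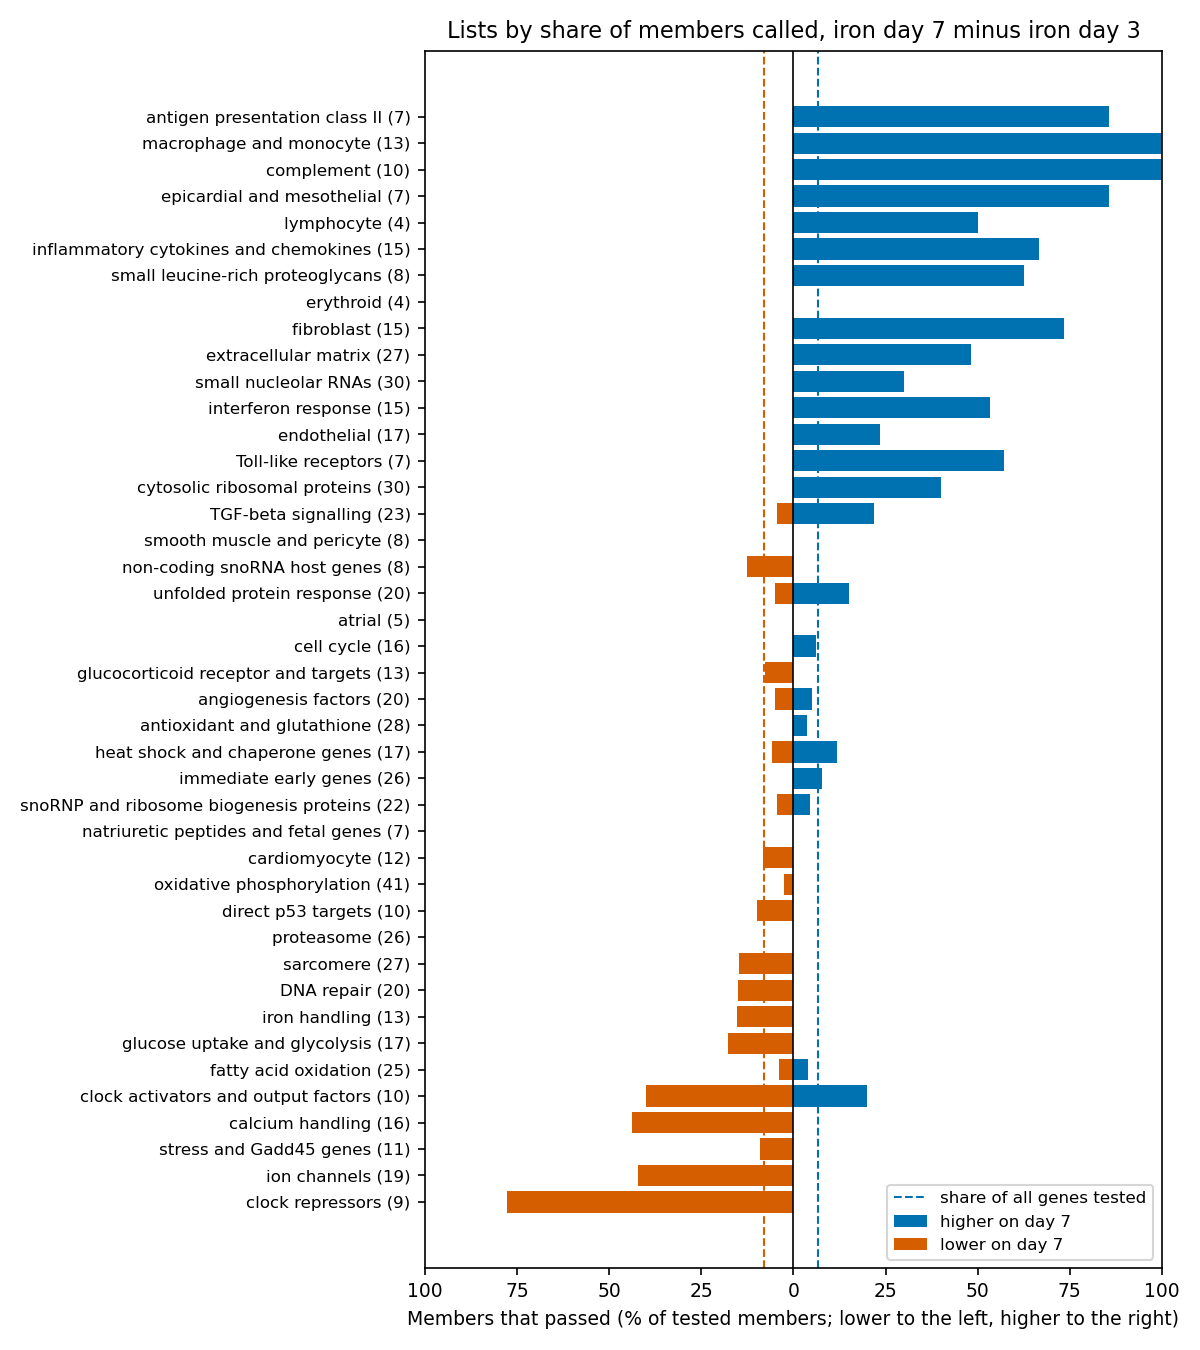
Share of the tested members of each list with 4 or more such members that were higher (right) or lower (left) on iron day 7 than on iron day 3, with the number tested in brackets and dashed lines at the shares among all genes tested, 6.75% and 8.07%. All members of the macrophage and complement lists were higher, and most clock repressors were lower.

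Heart muscle markers had high signals on both days. Of 12 cardiomyocyte markers, 11 did not pass and 1 was lower (Ryr2), with differences from -0.34 to 0.03. That count lay near the 8.07% of all genes tested that were lower. Myl2, the ventricular myosin light chain, had 12.11 and 12.23 on day 7 and 12.11, 12.19 and 12.12 on day 3, and Tnnt2, cardiac troponin T, had 12.35 and 12.45 on day 7 and 12.53, 12.54 and 12.49 on day 3. Of 27 sarcomere genes, 4 were lower (Tcap, Nebl, Myom1 and Mybpc3), against 8.07% of all genes tested, with a median of -0.12. A second probe set for Nebl did not pass (limma adjusted p = 0.0706). Tcap, the titin cap of the Z-disc, had 8.45 and 9.10 on day 7 and 9.77, 10.06 and 9.90 on day 3 (difference -1.14, SE 0.186, limma adjusted p = 0.00263), and it did not pass without day 7 replicate 1 (-0.82, limma adjusted p = 0.0573). The sarcomere count was 1 without that array, 7 without day 7 replicate 2, and 2 without day 3 replicate 2 or without day 3 replicate 3.

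Of 19 tested ion channel genes, 8 were lower on day 7, 0 were higher and 11 did not pass, with a median of -0.55, against 8.07% of all genes that were lower. Of the 8, 6 code for potassium channel subunits of inward rectifier or delayed rectifier currents, and the others were the pacemaker channel Hcn4 (-0.60) and the chloride transporter Clcn3 (-0.62). Kcnj3, a subunit of the acetylcholine-activated channel, had 8.78 and 9.10 on day 7 and 9.52, 9.83 and 9.79 on day 3 (difference -0.78, SE 0.139, limma adjusted p = 0.0042). Kcnh2, the rapid delayed rectifier, had 7.42 and 8.04 on day 7 and 8.32, 8.81 and 8.73 on day 3 (difference -0.89, SE 0.181, limma adjusted p = 0.00742). Kcnq1, the slow delayed rectifier, had 6.98 and 7.41 on day 7 and 7.76, 8.06 and 7.83 on day 3 (difference -0.69, SE 0.136, limma adjusted p = 0.006). The days did not overlap in these genes, and day 7 replicate 1 was the lowest array in each. Kcnj5 fell by 0.88, Kcnj2 by 0.70 and Kcnj11 by 0.58. The gap junction gene Gja1 (-0.35) did not pass. None of the 8 passed without day 7 replicate 1, where the list's median was -0.38, and 5 passed without day 3 replicate 2.

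Of 16 calcium handling genes, 7 were lower (median -0.28), against 8.07% of all genes tested. Slc8a1, the sodium-calcium exchanger, had 8.87 and 9.01 on day 7 and 9.46, 9.50 and 9.54 on day 3 (difference -0.56, SE 0.109, limma adjusted p = 0.00585). Casq2, the calcium store protein calsequestrin, had 11.11 and 11.10 on day 7 and 11.40, 11.38 and 11.38 on day 3, a small difference with little spread (-0.28, SE 0.0554, limma adjusted p = 0.00616). The calcium channel Cacna1c (-0.50), the release channel Ryr2 (-0.34), its partners Trdn (-0.43) and Asph (-0.34), and the kinase Camk2d (-0.28) also fell. A second probe set for Slc8a1 did not pass (-0.65, limma adjusted p = 0.0662), nor did 11 of the 16 other probe sets for Trdn, whose differences ran from -0.70 to -0.15. None passed without day 7 replicate 1 (median -0.23), and 4 passed without day 3 replicate 2. The mean centred signal of the macrophage markers was higher in both day 7 arrays (1.46 and 0.90, against -0.89, -1.04 and -0.67 on day 3), and its part in these falls was not tested.

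Of 41 tested oxidative phosphorylation genes, 1 was lower (Uqcrc2, -0.21), with a median of -0.07 that was 0.03 without day 7 replicate 1 and -0.21 without day 7 replicate 2. Of 25 fatty acid oxidation genes, Angptl4, a secreted lipase inhibitor, was higher (1.25) and Ppara, a lipid-sensing receptor, was lower (-0.54). The counts in both lists lay below the shares of all genes tested, 6.75% higher and 8.07% lower. Of 17 genes of glucose uptake and glycolysis, 3 were lower, the kinases Hk2 (-0.56) and Pfkm (-0.36) and the insulin-responsive glucose transporter Slc2a4 (-0.51). All 6 were lost without day 7 replicate 1, and without day 7 replicate 2 the lower counts were 8, 11 and 6 in the 3 lists. None of 26 proteasome genes and none of 7 natriuretic peptide and fetal genes passed (medians -0.09 and -0.05). Their medians also moved with single arrays, to -0.18 for the proteasome without day 7 replicate 2, and to 0.13 without that array and -0.21 without day 3 replicate 2 for the natriuretic and fetal genes.

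Of 30 tested cytosolic ribosomal proteins, 12 were higher on day 7, 0 were lower and 18 did not pass, with a median of 0.31. Among all genes tested, 6.75% were higher. Rpl10 had 11.22 and 11.22 on day 7 and 10.70, 10.79 and 10.79 on day 3 (difference 0.45, SE 0.0723, limma adjusted p = 0.00228), and Rps18 had 10.03 and 10.12 on day 7 and 9.76, 9.61 and 9.60 on day 3 (difference 0.42, SE 0.082, limma adjusted p = 0.00563). Both kept to 1 side of the threshold whichever array was left out. Genes of this family have near-identical processed copies and several probe sets each, so the source of their signal is uncertain. A further probe set for Rpl10 (0.19, limma adjusted p = 0.298) and a further one for Rps18 (0.34, limma adjusted p = 0.314) did not pass. The remaining probe sets for both genes passed. The count was 2 without day 7 replicate 1 and 5 without day 7 replicate 2 or without day 3 replicate 2.

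Of 30 tested small nucleolar RNAs, which guide the chemical marking of ribosomal RNA, 9 were higher on day 7, 0 were lower and 21 did not pass. The median was 0.76, and 6.75% of all genes tested were higher. Snord15b had 6.67 and 6.80 on day 7 and 5.51, 5.99 and 6.06 on day 3 (difference 0.88, SE 0.148, limma adjusted p = 0.00299). Snora21 had 9.33 and 9.29 on day 7 and 8.13, 8.66 and 8.62 on day 3 (difference 0.84, SE 0.15, limma adjusted p = 0.00434). Snora74a had 10.06 and 9.29 on day 7 and 6.43, 8.03 and 8.56 on day 3 (4.01-fold higher, limma adjusted p = 0.0121). In these RNAs it was the day 3 arrays that varied, with replicate 1 the lowest. The list's mean centred signal was 0.64 and 0.59 on day 7, against -0.57, 0.17 and 0.36 on day 3. Snord15b alone passed without day 7 replicate 1. The count was 15 without day 3 replicate 3, and the median was 0.34 without day 3 replicate 1. The proteins of these particles and of ribosome assembly did not follow as a list, since Npm1 was higher (0.41), Polr1a lower (-0.55) and 20 of 22 did not pass. A further list held host genes of small nucleolar RNAs and other non-coding RNAs, with 8 tested. They were Gas5, Snhg5, Snhg15, Snhg17, Taf1d, Rmrp, Rpph1 and Rnu12. Of these, 1 was lower (Snhg5, -0.54), against 8.07% of all genes tested, and 7 did not pass. The list's median was 0.24.

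Of 26 immediate early genes, Myc (0.91) and Klf6 (0.83) were higher, a share near the 6.75% of all genes tested, and the median was 0.02. Neither passed without day 7 replicate 1 (limma adjusted p = 0.249 for both) or without day 3 replicate 2 (0.0616 and 0.0668). The day 7 arrays disagreed here, with list means of 0.95 and -0.10, against 0.52, 0.16 and 0.41 on day 3. The list's median was -0.51 with 1 gene lower (Btg2) without day 7 replicate 1, and 0.45 with 7 genes higher without day 7 replicate 2. Of 11 stress and Gadd45 genes, Ddit3, a factor of the endoplasmic reticulum stress response, was lower (-0.84, SE 0.218, limma adjusted p = 0.0218). Of 10 direct p53 targets, Perp was lower (-0.38), and of 20 DNA repair genes the damage kinases Prkdc (-0.45) and Atr (-0.38) and the repair factor Trp53bp1 (-0.36) were lower. The stress and p53 counts of 1 lay near the 8.07% of all genes that were lower. Perp did not pass without day 7 replicate 1, and of the 3 DNA repair genes 0 passed without either day 7 array and 1 passed without each day 3 array in turn. Of 17 heat shock and chaperone genes, Hsph1 (1.17) and Hspe1 (0.46) were higher and Hspb7 (-0.31) was lower, and a second probe set for Hspe1 did not pass (limma adjusted p = 0.116). Of 20 genes of the unfolded protein response, Sdf2l1 (0.95), Pdia4 (0.80) and Pdia3 (0.60) were higher and Ddit3 was lower. Among the stress, heat shock and unfolded protein genes named here, Ddit3 alone passed without day 7 replicate 1 (limma adjusted p = 0.048), and it was lost without day 7 replicate 2 (0.145) or day 3 replicate 1 (0.0728).

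Hmox1, which codes for the haem-degrading enzyme haem oxygenase 1, was the only 1 of 28 antioxidant and glutathione genes that passed. It had 7.56 and 6.87 on day 7, against 5.71, 5.25 and 5.53 on day 3 (difference 1.72, SE 0.227, limma adjusted p = 0.000994), and it passed without any 1 of the arrays. Of 13 iron handling genes, the transferrin receptor Tfrc (-1.10, SE 0.316, limma adjusted p = 0.0335) and the importer Slc11a2 (-0.48) were lower, and neither passed without day 7 replicate 1. Of 23 genes of TGF-beta signalling, 5 were higher (Id2, Id3, Tgfb3, Tgfbr2 and Tgfb1, from 0.48 to 1.09) and Ltbp1 was lower (-0.55). Of 20 angiogenesis factors, the receptor Tek was higher (0.84) and its ligand Angpt1 was lower (-0.93). Of 16 cell cycle genes, Mcm6 was higher (0.86), and of 13 glucocorticoid receptor and target genes, the clock gene Per1 was lower. Beside these counts stand the shares of all genes tested, 6.75% higher and 8.07% lower. The antioxidant, angiogenesis, cell cycle and glucocorticoid counts lay near or below them. The TGF-beta, angiogenesis, cell cycle and glucocorticoid genes named here were all lost without day 7 replicate 1.

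The 12 largest rises held, beside Ccl9, Ccl6, Arntl and H2-Aa, several more genes that macrophages are known to carry. Vsig4, a complement receptor of tissue macrophages, had 8.67 and 7.84 on day 7, against 5.26, 5.58 and 6.02 on day 3 (difference 2.64, SE 0.338, limma adjusted p = 0.000861). Timd4, a receptor for phosphatidylserine on resident macrophages, had 8.09 and 7.04 on day 7 and 4.79, 5.15 and 5.13 on day 3 (difference 2.54, SE 0.414, limma adjusted p = 0.00258). Fcna, a ficolin that recognises sugars, had 8.71 and 7.67 on day 7 and 4.68, 5.80 and 5.23 on day 3 (difference 2.95, SE 0.434, limma adjusted p = 0.0018). Each pair of day 7 arrays lay clear of the day 3 arrays. The others were Ms4a6c (2.76), Wfdc18 (2.75), Spon2 (2.66), a secreted matrix protein, the leukocyte membrane protein Cd53 (2.56), and the B cell chemokine Cxcl13. Cxcl13 had 11.07 and 10.34 on day 7 and 6.61, 9.07 and 7.92 on day 3, the widest spread of these (difference 2.84, SE 0.896, limma adjusted p = 0.0492), and it did not pass without either day 7 array or without day 3 replicate 1 or 3. Timd4 and Wfdc18 did not pass without day 7 replicate 1 (limma adjusted p = 0.0625 and 0.0724).

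The 12 largest falls held, beside Ciart, Per3, Dbp, Per2 and Tef, 7 genes outside the clock lists. The microRNA gene Mir133a-1, which gives rise to a muscle microRNA, had 6.04 and 4.74 on day 7, against 7.54, 7.77 and 7.06 on day 3 (difference -2.07, SE 0.397, limma adjusted p = 0.00554), and the sham mean was 5.68. Rnf207, a RING finger gene linked to cardiac repolarisation in humans, had 6.56 and 6.65 on day 7 and 7.63, 7.88 and 7.77 on day 3 (difference -1.16, SE 0.169, limma adjusted p = 0.00177). Gdap10 had 6.37 and 6.29 on day 7 and 7.74, 7.80 and 7.62 on day 3 (difference -1.39, SE 0.156, limma adjusted p = 0.000416). These 3 passed without any 1 of the arrays. The phospholipase Pla2g4e (-1.41), the growth factor Fgf16 (-1.15), Gtpbp8 (-1.22) and Polg2 (-1.20), the accessory subunit of the mitochondrial DNA polymerase, did not pass without day 7 replicate 1 (limma adjusted p from 0.0573 to 0.249).

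A later-minus-earlier comparison was set beside this one, iron days 14 and 28 minus iron day 1 (4 arrays and 3 arrays). No array entered both differences, but both came from the same fit, so each gene's estimate of spread was shared. A gene with a small spread could pass more easily in both, so the calls of the comparisons are not independent. In days 14 and 28 minus day 1, 267 genes were higher and 164 lower (limma, adjusted p under 0.05), which is 2.68% and 1.65% of the genes tested. Of the genes higher on day 7 than on day 3, 123 were also higher there, which is 18.3% of the 673 and 46.1% of the 267. Of those lower on day 7, 71 were also lower there, 8.83% of the 804 and 43.3% of the 164, and 1 gene passed in opposite directions. The count there depended on single arrays as well, being 851 without day 1 replicate 1 and between 106 and 147 without day 1 replicate 2 or 3 or without either day 28 array, and 229 without day 14 replicate 1.

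The clock lists moved in both comparisons. In days 14 and 28 minus day 1, 7 of 9 clock repressors were lower, with a median of -0.79, against -0.01 over all genes tested. Among all genes tested, 2.68% were higher and 1.65% were lower there. Ciart differed by -3.29 (SE 0.213, limma adjusted p = 4.62e-06) there and by -3.13 here, Arntl by 2.23 (SE 0.242, limma adjusted p = 0.000152) there and by 2.60 here, and Dbp by -1.66 (SE 0.13, limma adjusted p = 1.21e-05) there and by -2.07 here. The other main lists had other values. Of the 13 macrophage markers, 0 passed there and their median was 0.39, against 2.06 here; Adgre1 differed by 0.21 (SE 0.206, limma adjusted p = 0.573). Of the 7 class II genes, 4 were higher there (median 1.51), and of the 7 epicardial and mesothelial markers, 4 were higher there (median 1.16). Of the 19 ion channel genes 1 was lower there (median -0.08), and of the 30 small nucleolar RNAs 27 were higher there (median 1.75, against 0.76 here). The difference between the 2 comparisons was not tested. With limma no gene passed between iron day 14 and iron day 7, with 2 arrays each, although 1443 had an unadjusted p under 0.05. For day 14 minus day 7, list medians were -1.15 for macrophage markers, -1.28 for class II genes and -1.21 for epicardial and mesothelial markers. They were 0.004 for clock repressors, 0.28 for ion channels and 0.24 for small nucleolar RNAs. The lack of calls therefore does not show that the 2 days were alike.

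**Figure D5:**
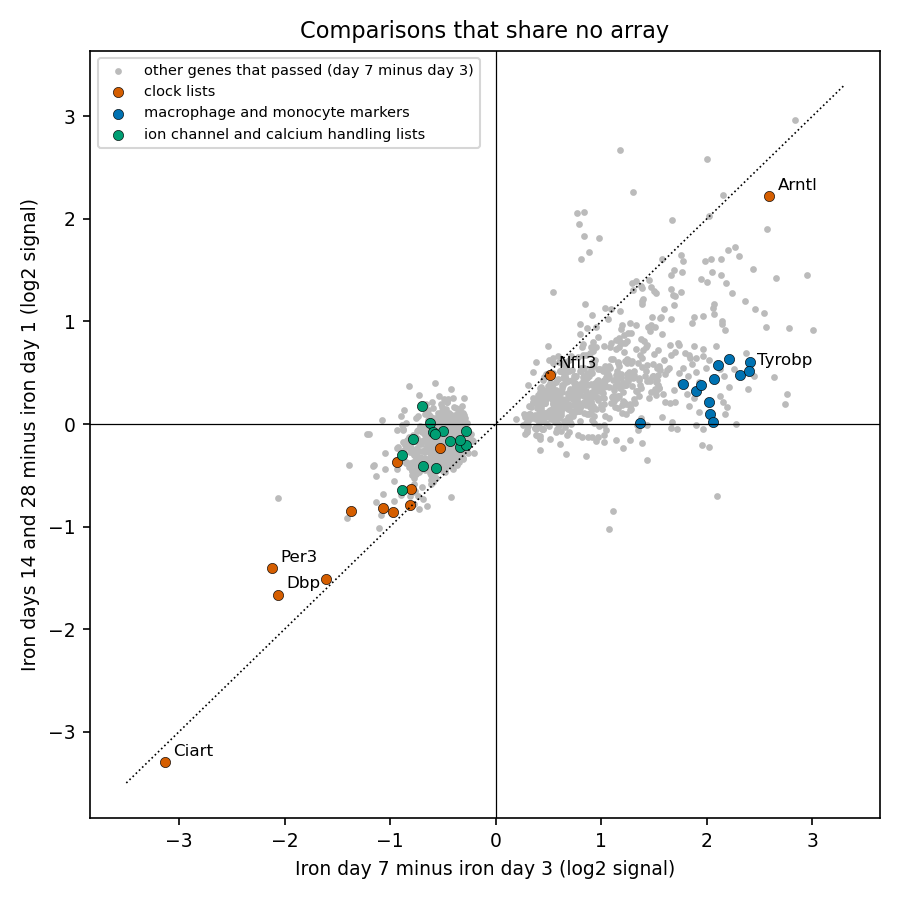
Each point is 1 of the 1477 genes that passed, with iron day 7 minus iron day 3 on the horizontal axis and iron days 14 and 28 minus iron day 1 on the vertical axis (both log2 signal); the dotted line marks equal differences. Ciart, a clock gene (orange), lies near the dotted line at -3.13 and -3.29, and macrophage and monocyte markers (blue) lie below it at the right.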

How the data were processed

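The authors deposited log2 signals of 15 arrays, and per the submitters' processing notes MAS5 was used, but for which step, and in which version, is not given in the sources used here. Of these arrays, the 34760 probe sets were reduced to 19937 genes, 1 probe set each, by the highest mean over the arrays among the 21640 with 1 symbol, and the 9969 genes with a mean signal at or above the 50th percentile were tested. A model with a mean for each iron day and for sham (9 residual degrees of freedom) was fitted with limma 3.58.1 in R 4.3.3, with an intensity trend and Benjamini-Hochberg adjustment over the genes tested, and a threshold of 0.05. Python 3.11.15 did the rest.

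Members and lists were chosen with earlier results of these data known. Named genes were the 12 largest changes in each direction among genes that passed with no overlap of arrays, up to 6 members of each list by smallest p, and any clock gene; other members were named after their values were seen. The alternatives were quantile normalization, median centring, other filters, no trend, array weights, all probe sets, fewer arrays in the fit, a replicate block and leaving out each array. On simulated data the fit recovered 95 of 100 genes changed by 1 log2 unit and 40 of 100 changed by 0.5, with 9 false calls. The simulated errors were independent and had, for each gene, the same spread in every array. In the data, array weights, which are lower for noisier arrays, were 0.596 for each day 7 array and 1.05 to 1.50 for day 3. These figures therefore cannot show how reliable the calls are in the data.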

Additional observations from a re-analysis of the deposited data

How the results depend on the processing

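Of 1477 genes that passed, counts were between 1013 and 1668 under the other normalizations, filters and sets of arrays. The stricter filter left 367 higher genes, with fewer genes tested, and the fit of the 5 arrays alone left 475 lower genes, with fewer arrays. The share of higher genes among those that passed was 45.6%, and it was 45.5% with quantile normalization and 46.6% with median centring. Leaving out 1 array gave 143 to 1723 genes in all, 81 to 821 higher and 62 to 902 lower, with the lowest counts without day 7 replicate 1; the cause was not tested. For iron days 14 and 28 minus iron day 1, 431 genes passed, against 677 with array weights, an alternative chosen after seeing the data, and 106 to 851 when 1 array was left out. Of 146 named genes that passed, 40 still passed without day 7 replicate 1 and 114 to 130 without any other 1 of the 5. Nr1d1 (-0.04) turned to 0.076 without day 7 replicate 1 and 0.124 without day 3 replicate 1, with a range of -0.18 to 0.124 over the arrays left out, and Bhlhe40 (-0.05) to 0.192 without day 7 replicate 2 and 0.097 without day 3 replicate 1, with a range of -0.299 to 0.192.

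With the replicate number as a block, 1249 genes passed, and 380 in iron days 14 and 28 minus iron day 1. Deviations of same-numbered arrays correlated at -0.058 for number 1 and 0.146 for number 2, but with 2 day 7 arrays their deviations mirror each other, so these values do not show whether the numbers pair the arrays. The labels give the numbers no further meaning, and no pairing was assumed.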
